A study of Mus musculus with 4 samples.

Results

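Imprinted genes, which are expressed mainly from a single parental allele, were followed by locus in mouse embryonic stem cells (mESCs) after depletion of ZBTB21, a BTB domain zinc finger protein. The set comprised 47 genes named by symbol in 21 loci, and all 47 were found among the 55401 genes of the count table by matching Ensembl identifiers to GENCODE symbols. RNA-seq had been performed on 4 libraries. The ZBTB21-degron group (2 libraries) was given doxycycline (1 µg/ml, 24 h) followed by the auxin IAA (500 µM, 24 h), and the untreated group (2 libraries) came from the same kind of cells, labelled only as untreated. In both groups a degron and GFP had been knocked in homozygously at the C-terminus of ZBTB21 in a selected clone of an OsTIR1-expressing line, and both were grown with LIF and with the GSK3 inhibitor CHIR99021 and the MEK inhibitor PD0325901. When IAA is present, the degron tag directs the protein to the proteasome. Cells that received both additions while keeping ZBTB21 were not analysed here, and doxycycline use in the untreated group is not stated in the labels, so effects of the additions and of ZBTB21 loss cannot be told apart. Nor is it stated whether replicates were separate cultures, and the p-values therefore reflect the spread among 4 libraries that may differ only technically.

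Imprinted genes lie in clusters that share an imprinting control region, a stretch of DNA methylated on the maternal or the paternal copy since the germ line. In many clusters a long non-coding RNA is made from the unmethylated copy, and protein-coding neighbors are silenced in cis on the same chromosome. In mESCs the marks are kept by ZFP57 and TRIM28, which bind methylated control regions, and by the methyltransferase DNMT1, and culture with a MEK inhibitor is known to lower DNA methylation in these cells, imprints included. DNA methylation was not measured in these libraries. The counts sum reads from both parental copies, so a change of level cannot be told apart from a change in the number of active copies.

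Library totals were 9055498 and 8344408 counts in degron cells and 10604451 and 9431642 in untreated cells. Levels are given as CPM, the library-size-scaled count unit of edgeR, with TMM factors applied, and a gene was tested where edgeR's filterByExpr kept it. Embryonic stem cell markers were present in every library, with the 7 listed genes (Pou5f1, Nanog, Sox2, Zfp42, Esrrb, Tdgf1 and Dppa5a) summing to 4541 and 4650 CPM in degron cells against 5108 and 5350 CPM in untreated cells. Markers of other cells summed to 15.7 and 16.0 CPM in degron cells against 10.3 and 10.5 CPM in untreated cells for 6 primitive endoderm genes, to 99.7 and 97.2 against 100 and 95.0 CPM for 6 trophoblast genes, to 4.80 and 3.22 against 9.47 and 11.1 CPM for 5 fibroblast genes, of which Postn had no count, and to 60.2 and 66.4 against 69.7 and 80.2 CPM for 5 neural genes. The endoderm sum was thus higher and the stem cell, fibroblast and neural sums lower in degron cells, and their part in the results was not tested. Tdgf1, Sox2 and Nanog were the stem cell markers called lower, by 0.83, 0.31 and 0.22 on the log2 scale, and Esrrb was called higher by 0.16. Thy1 made most of the fibroblast difference, at 3.27 and 2.03 CPM in degron libraries against 8.24 and 9.86 CPM in untreated libraries, with Col1a1 above the untreated libraries in both degron ones. Tubb3 made most of the neural difference, at 50.7 and 58.8 CPM in degron libraries against 62.7 and 72.6 CPM in untreated libraries, with Sox1 above the untreated libraries in both degron ones. Tfap2c made most of the trophoblast sum, at 80.8 and 80.6 CPM in degron libraries against 83.1 and 76.2 CPM in untreated libraries. Gata3 had 1.42 and 2.03 CPM against 0.757 and 0.650 CPM, and passed the low-count filter through the degron libraries alone. Cdx2, untested, was above the untreated libraries in both degron ones, and Elf5, Krt7 and Eomes overlapped. Among endoderm genes Gata4 alone was called, higher by 0.59 on the log2 scale. Fewer cells of a type and less RNA per cell cannot be told apart in such bulk libraries. Zbtb21 mRNA itself stood at 130 and 133 CPM in degron cells against 61.7 and 56.9 CPM in untreated cells, but because protein is what the degron removes, its mRNA is no check of the labels.

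Of the 47 imprinted genes, 38 were tested, and 13 rose and 6 fell in degron cells at an edgeR quasi-likelihood adjusted p under 0.05, while 19 were not called. The higher genes were Igf2r, Meg3, Rian, Mirg, Dio3, Peg3, Plagl1, Kcnq1ot1, Blcap, Impact, Gnas, Zrsr1 and H13, and the lower genes were Usp29, Phlda2, Ddc, Ndn, Commd1 and Mcts2. Among all 13916 genes tested, 43.8% were called, 22.2% higher and 21.6% lower, against 50.0% of the tested imprinted genes, 34.2% higher and 15.8% lower. Their median log2 fold change was 0.16, against 0.01 over all genes tested, and 9 of the 19 called genes (47.4%) changed at least 1.5-fold, against 1900 of the 6093 called among all genes (31.2%). The degron and untreated libraries did not overlap for 30 of the 38 genes (78.9%), against 70.6% of all genes tested. DESeq2, which gave an adjusted p to 37 of the 38, called 8 higher and 2 lower (27.0%), against 22.0% of the genes to which it gave one. With any 1 library left out, edgeR called a smaller share of the members and of all genes tested. The share of the members was below that of all genes without untreated replicate 2, and above it without any other library. Usp29, 1 of the 6 lower genes, passed the low-count filter through the untreated libraries alone, which fixed its direction. It is also 1 of the 9 genes changed at least 1.5-fold and of the 30 without overlap, so these counts are descriptions.

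By the parental copy known to be active in mouse, the 16 tested genes of maternal expression had 6 higher and 2 lower, with a median log2 fold change of 0.08. Those of paternal expression, 21 tested genes, had 6 higher and 4 lower, with a median of 0.20. Gnas, which makes products from either copy by promoter, was counted in neither. Several of these genes are imprinted mainly in placenta, heart, brain or neurons (Cd81, Tssc4, Ascl2, Ddc, Blcap, Ube3a, Trappc9 and Commd1), so their known allele need not be the one active in mESCs. Of 5 tested non-coding members, 4 were higher, 0 were lower and Peg13 was not called. The 33 tested protein-coding members had 9 higher and 6 lower. Usp29, whose direction was fixed by the low-count filter, is among the lower genes of the paternal and the protein-coding class. The called share was thus 50.0% for maternal, 47.6% for paternal and 45.5% for protein-coding genes, against 43.8% of all genes tested (22.2% higher and 21.6% lower). It was 80.0% for the non-coding genes, but these are only 5, of which Meg3, Rian and Mirg belong to the same locus. Nothing particular to a class is read from these counts.

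**Figure D1:**
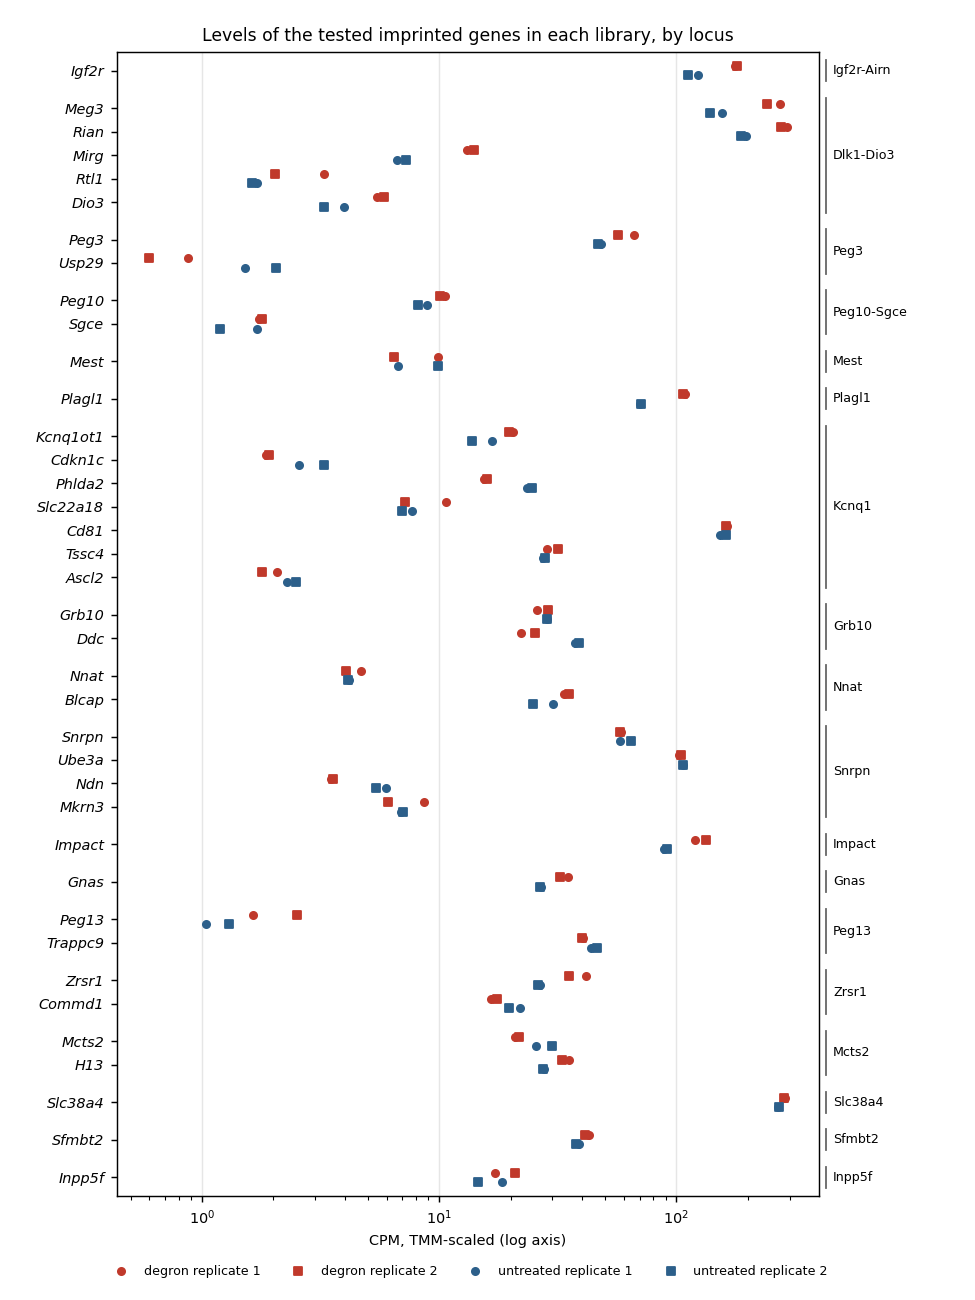
Level of each of the 38 tested imprinted genes in every library, in TMM-scaled CPM on a log axis, grouped by locus; red marks are degron libraries and blue marks untreated libraries, circles replicate 1 and squares replicate 2. The red marks of Meg3, Rian, Mirg, Igf2r and Plagl1 lie to the right of the blue ones, those of Usp29, Phlda2, Ddc and Ndn to the left, and those of Mest and Grb10 overlap with them.

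The reference promoters of these genes were examined for shared sequence, since neighboring members moved together in some loci and apart in others. RefSeq promoter windows (GRCm38.p6, 250 bases before to 50 after a start site) were used for 39 of the 47 members, as 57 windows. None was used for H19, Peg13, Impact, Rtl1, Cdkn1c, Sgce, Peg10 and Trappc9. Impact was left out of the windows by choice, so its absence says nothing about RefSeq. For the other members listed, absence here does not show that RefSeq lacks a window either. The hexamer TGCCGC, or GCGGCA on the other strand, is bound by ZFP57 when its CpG is methylated. It was present in 13 of the 57 windows (22.8%), of 12 members, against 11.6% of all 32851 windows. Those members were Igf2, Meg3, Zim1, Mest, Plagl1, Grb10, Nnat, Snrpn, Snurf, Nap1l5, Commd1 and Mcts2. Meg3 and Plagl1 were called higher, Commd1 and Mcts2 lower, and the others were not called or not tested. Among the called genes, Igf2r, Rian, Mirg, Phlda2 and Ddc had no match in their windows. Windows of the members held a median of 15 CpG, against 7 in all windows, and 4 pairs of them overlap (of Mest, of Gnas, of Snrpn and Snurf, and of Peg3 and Usp29). The palindrome TGACGTCA, the cyclic AMP response element bound by CREB and ATF factors and chosen here after the sequences had been seen, was present in 3 member windows (5.26%), of Meg3, Peg3 and Usp29, against 1.79% of all windows, and Peg3 and Usp29 share a single site. A match is not a bound site, and none of these windows was tested for binding or methylation here.

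The Dlk1-Dio3 locus on chromosome 12 was higher in degron cells along its maternally expressed non-coding genes. These are made as a long run of RNAs in the same direction, while Dlk1, Rtl1 and Dio3 are paternally expressed protein-coding genes. The promoter of Meg3, the first gene of the run, is shown because all 3 tested RNAs of the run rose. It is the plus strand of chr12:109540746-109541045, and capitals mark the hexamer on the other strand and the palindrome.
Meg3: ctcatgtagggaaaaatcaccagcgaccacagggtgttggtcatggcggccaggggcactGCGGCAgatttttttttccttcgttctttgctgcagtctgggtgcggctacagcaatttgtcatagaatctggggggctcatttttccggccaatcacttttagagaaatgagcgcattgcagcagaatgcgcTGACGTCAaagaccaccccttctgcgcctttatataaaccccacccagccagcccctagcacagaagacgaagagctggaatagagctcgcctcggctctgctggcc

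Meg3 (ENSMUSG00000021268.17, chr12:109541001-109571726, plus strand), a long non-coding RNA also named Gtl2, had 274 and 242 CPM in degron libraries, against 155 and 138 CPM in untreated libraries. Both degron libraries were above both untreated ones, and Meg3 rose by 0.81 ± 0.06 on the log2 scale (SE, edgeR adjusted p = 1.94e-20). Rian (chr12:109603940-109661716), which hosts small nucleolar RNAs, had 293 and 277 CPM in degron libraries, against 196 and 187 CPM in untreated libraries. The groups were again apart, with a log2 fold change of 0.58 (SE of 0.05, edgeR adjusted p = 6.96e-15). Mirg (chr12:109729764-109749460), the microRNA host at the far end of the run, had 13.1 and 14.0 CPM in degron libraries, against 6.63 and 7.26 CPM in untreated libraries. It was close to 2-fold higher, with a log2 fold change of 0.96 (SE of 0.17, edgeR adjusted p = 1.42e-06). Per kilobase of exon, Rian and Meg3 were similar in degron cells, at 15.6 and 14.3 CPM per kb, and Mirg was far lower, at 1.86 CPM per kb.

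The balance among the RNAs of the run was compared by ratios, which do not depend on library size. The ratio of Meg3 to Rian counts within a library was 0.936 and 0.873 in degron libraries, against 0.794 and 0.741 in untreated libraries. The ratio of Mirg to Rian was 0.0447 and 0.0504 in degron libraries, against 0.0339 and 0.0389 in untreated libraries. Both ratios were higher in both degron libraries, with the 2-sided exact permutation p of 0.333 that is the smallest possible with 2 libraries against 2. The ratio of Mirg to Meg3 overlapped between the groups, at 0.0478 and 0.0577 in degron libraries and 0.0427 and 0.0525 in untreated libraries. In all, 17 such ratios were computed here, and since none can reach a p below 0.333, they are given as descriptions.

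Of the paternally expressed genes of this locus, Dio3 was called and Rtl1 was not. Dio3 (chr12:110279068-110281097), the deiodinase that inactivates thyroid hormone, had 5.46 and 5.85 CPM in degron libraries, against 3.98 and 3.25 CPM in untreated libraries. The groups did not overlap and Dio3 rose by 0.63 ± 0.24 on the log2 scale (SE, edgeR adjusted p = 0.0272). That call was lost without degron replicate 1, degron replicate 2 or untreated replicate 2 (edgeR adjusted p of 0.0763, 0.136 and 0.147) and in DESeq2 (adjusted p = 0.289). Rtl1, a retrotransposon-derived gene needed in the placenta, had 3.27 and 2.03 CPM in degron libraries, against 1.70 and 1.63 CPM in untreated libraries. Its log2 fold change of 0.68 ± 0.34 was as large as that of Dio3 but was not called (SE, edgeR adjusted p = 0.102), and degron replicate 1 alone stood well above the others. Dlk1, a transmembrane protein of the Notch ligand family, had 8 counts over the degron libraries and 10 over the untreated libraries and was not tested. The exons of Rtl1 overlap microRNA genes on the other strand. Since no source used here states how strand was handled in counting, such reads cannot be told apart.

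At the Peg3 locus on chromosome 7, Peg3 was higher in degron cells, and its neighbor Usp29, at a few counts per library, had lower values there. Both are paternally expressed and their RefSeq start sites lie 164 bases apart on opposite strands, so their windows cover nearly the same DNA. The plus strand of chr7:6730333-6730632, the window of Usp29, is shown for this reason, with the 263 bases that are also in the Peg3 window in capitals. The shared bases hold the palindrome TGACGTCA.
Usp29: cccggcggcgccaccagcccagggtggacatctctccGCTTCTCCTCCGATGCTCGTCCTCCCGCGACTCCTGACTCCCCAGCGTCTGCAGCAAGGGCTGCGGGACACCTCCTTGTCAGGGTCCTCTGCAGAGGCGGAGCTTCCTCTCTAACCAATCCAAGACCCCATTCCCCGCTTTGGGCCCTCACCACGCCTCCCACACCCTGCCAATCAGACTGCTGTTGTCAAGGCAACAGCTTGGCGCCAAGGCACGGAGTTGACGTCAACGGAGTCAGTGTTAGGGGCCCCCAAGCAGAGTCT

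Peg3 (chr7:6703892-6730431, minus strand), a zinc finger protein gene, had 66.5 and 56.5 CPM in degron libraries, against 48.1 and 46.6 CPM in untreated libraries. Peg3 was above the untreated range in both degron libraries and rose by 0.38 ± 0.08 on the log2 scale (SE, edgeR adjusted p = 2.53e-05). Usp29 (chr7:6730578-6967219, plus strand), of the ubiquitin protease family, had 0.873 and 0.597 CPM in degron libraries, against 1.51 and 2.06 CPM in untreated libraries. These levels rest on 8 and 5 counts in degron libraries and 16 and 19 counts in untreated libraries. Usp29 fell by 1.24 ± 0.45 on the log2 scale (SE, edgeR adjusted p = 0.0196). It passed the low-count filter of 1.08 CPM in at least 2 libraries through the untreated libraries alone, where it was higher, so passing it already fixed the direction, and its estimate is a description. Its call was lost without degron replicate 1, degron replicate 2 or untreated replicate 2 (edgeR adjusted p of 0.0679, 0.199 and 0.205), and DESeq2 gave it no adjusted p. The ratio of Usp29 to Peg3 counts was 0.0131 and 0.0106 in degron libraries, against 0.0315 and 0.0442 in untreated libraries (exact permutation p = 0.333). The filter bears on this ratio as on Usp29 itself, so its lower value in degron libraries adds no support. Zim1, a maternally expressed zinc finger gene of the same locus, had 5 counts over each group and was not tested. Exons of Usp29 share 2582 bases with Zim3 on the other strand, which had at most 3 counts in a library.

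Plagl1, a paternally expressed gene in a locus of its own, was among the clearest rises. Plagl1 (chr10:13060504-13131694, plus strand), also named Zac1, encodes a zinc finger transcription factor known to act on other imprinted genes. The promoter of Plagl1, on the plus strand of chr10:13090582-13090881, is shown because it carries the ZFP57 hexamer on its other strand, in capitals.
Plagl1: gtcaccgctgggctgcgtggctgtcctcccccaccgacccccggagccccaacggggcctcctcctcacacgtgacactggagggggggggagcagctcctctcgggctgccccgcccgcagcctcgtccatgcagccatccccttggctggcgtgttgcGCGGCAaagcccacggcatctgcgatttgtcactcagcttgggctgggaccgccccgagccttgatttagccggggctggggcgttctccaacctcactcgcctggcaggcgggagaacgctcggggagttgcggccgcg

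Plagl1 had 109 and 106 CPM in degron libraries, against 70.0 and 70.9 CPM in untreated libraries. Replicates differed little beside the gap between the groups, and Plagl1 rose by 0.61 ± 0.06 on the log2 scale (SE, edgeR adjusted p = 2.33e-13).

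Impact (chromosome 18), a paternally expressed regulator of the eIF2alpha kinase GCN2, had 119 and 133 CPM in degron libraries, against 88.7 and 91.2 CPM in untreated libraries. Both degron libraries were higher, and Impact rose by 0.49 ± 0.06 on the log2 scale (SE, edgeR adjusted p = 2.12e-10).

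Igf2r was higher in degron cells as well, while its antisense RNA was near 0 in both groups. Igf2r (chr17:12682406-12769664, minus strand), a receptor known as maternally expressed that takes up and degrades IGF2, had 176 and 180 CPM in degron libraries, against 123 and 112 CPM in untreated libraries. The groups were far apart and the log2 fold change was 0.60 ± 0.06 (SE, edgeR adjusted p = 1.36e-14). Airn, the paternally expressed antisense RNA that silences Igf2r in cis in other tissues, had 3 counts over the degron libraries and 2 over the untreated libraries. Whether Igf2r was expressed from a single copy in these cells was not measured. Igf2, the growth factor taken up by Igf2r, had 1 count over each group, and H19, its neighboring non-coding RNA, had 4 counts over the degron libraries and 5 over the untreated libraries. None of these last genes was tested, and a difference in them was not detectable at this depth. Igf2 shares 3596 of its 5723 exonic bases with Gm49394 on the same strand, which had no count, so reads of the pair cannot be told apart.

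In the Kcnq1 locus on chromosome 7 the paternally expressed non-coding RNA was higher and the maternally expressed Phlda2 lower in degron cells. Kcnq1ot1 (chr7:143203458-143296549, minus strand), which silences the domain in cis, had 20.4 and 19.7 CPM in degron libraries, against 16.7 and 13.8 CPM in untreated libraries. It rose by 0.39 ± 0.13 on the log2 scale (SE, edgeR adjusted p = 0.00889). Its call was lost without degron replicate 1 or untreated replicate 2 (edgeR adjusted p of 0.0628 and 0.120) and in DESeq2 (adjusted p = 0.197). Phlda2 (chr7:143501545-143503150, minus strand), a pleckstrin homology domain protein that limits placental growth, had 15.5 and 15.9 CPM in degron libraries, against 23.5 and 24.5 CPM in untreated libraries. Replicates were close together in each group and Phlda2 fell by 0.61 ± 0.12 on the log2 scale (SE, edgeR adjusted p = 1.72e-05). The ratio of Phlda2 to Kcnq1ot1 counts was 0.759 and 0.806 in degron libraries, against 1.41 and 1.78 in untreated libraries (exact permutation p = 0.333).

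The other maternally expressed genes of the Kcnq1 locus were not called. Cdkn1c, the cyclin-dependent kinase inhibitor p57, had 1.85 and 1.91 CPM in degron libraries, against 2.56 and 3.25 CPM in untreated libraries. Its log2 fold change of -0.61 ± 0.33 was the same size as that of Phlda2, with lower counts and no call (SE, edgeR adjusted p = 0.123). The ratio of Cdkn1c to Phlda2 counts was 0.120 in both degron libraries, inside the range of 0.109 to 0.133 in the untreated libraries (exact permutation p = 1). Cdkn1c shares 625 exonic bases with Gm44732 on the other strand, which had no count. Slc22a18, an organic cation transporter family member that lies between Cdkn1c and Phlda2, had 10.7 and 7.17 CPM in degron libraries, against 7.67 and 6.94 CPM in untreated libraries, and the groups overlapped. Cd81, a tetraspanin of the cell surface, had 163 and 161 CPM in degron libraries, against 153 and 163 CPM in untreated libraries. Cd81 was thus within the untreated range or close to it. Tssc4, a splicing-related protein, had 28.6 and 31.6 CPM in degron libraries, against 27.4 and 27.9 CPM in untreated libraries. Ascl2, a trophoblast transcription factor, had 2.07 and 1.79 CPM in degron libraries, against 2.27 and 2.49 CPM in untreated libraries. Tssc4 was slightly higher and Ascl2 slightly lower in both degron libraries, without a call. The log2 fold changes of these last 4 genes ranged from -0.29 for Ascl2 to 0.30 for Slc22a18. Kcnq1 itself, the potassium channel gene within which Kcnq1ot1 lies, had at most 3 counts in a library.

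In the Grb10 locus on chromosome 11, Ddc was lower in degron cells and its neighbor Grb10 was not called. Ddc (chr11:11814101-11898144, minus strand), the aromatic amino acid decarboxylase, had 22.0 and 25.3 CPM in degron libraries, against 37.2 and 38.9 CPM in untreated libraries. The groups were well apart and Ddc fell by 0.69 ± 0.10 on the log2 scale (SE, edgeR adjusted p = 1.26e-08). Grb10, its neighbor and an adaptor that restrains insulin and IGF signaling, had 25.7 and 28.7 CPM in degron libraries, against 28.6 and 28.4 CPM in untreated libraries. The groups overlapped for Grb10, and its log2 fold change of -0.07 ± 0.10 was not called (SE, edgeR adjusted p = 0.605). The ratio of Ddc to Grb10 counts was 0.856 and 0.883 in degron libraries, against 1.30 and 1.37 in untreated libraries (exact permutation p = 0.333).

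In the Snrpn locus on chromosome 7, the MAGE family gene Ndn was lower in degron cells while Snrpn, Ube3a and Mkrn3 were not called. Ndn (chr7:62346569-62350262, plus strand), which encodes necdin, had 3.49 and 3.58 CPM in degron libraries, against 5.96 and 5.42 CPM in untreated libraries. The groups did not overlap and Ndn fell by 0.69 ± 0.24 on the log2 scale (SE, edgeR adjusted p = 0.0162). Its call was lost without degron replicate 1, degron replicate 2 or untreated replicate 1 (edgeR adjusted p of 0.0966, 0.0685 and 0.0870) and in DESeq2 (adjusted p = 0.243). Magel2, the neighboring MAGE family gene, had 0 counts in both degron libraries, against 4 and 3 counts in untreated libraries. Taking 3 counts over the degron group as the floor, equal to 0.171 CPM, the untreated mean of 0.352 CPM was 2.06-fold above it. This floor allows for counting error in the degron libraries alone, and the untreated mean has its own, so no smallest fold change is given. Magel2 did not pass the low-count filter and was not called without it (edgeR adjusted p = 0.0932).

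Snrpn, which encodes the spliceosomal protein SmN, had 58.6 and 57.7 CPM in degron libraries, against 57.6 and 64.2 CPM in untreated libraries, with overlap. Ube3a, the ubiquitin ligase E6-AP, had 103 and 105 CPM in degron libraries, against 107 CPM in both untreated libraries, a difference of -0.04 ± 0.06 on the log2 scale (SE, edgeR adjusted p = 0.622). Mkrn3, a makorin ubiquitin ligase, had 8.62 and 6.09 CPM in degron libraries, against 6.91 and 7.05 CPM in untreated libraries, with overlap. The ratio of Ndn to Snrpn counts was 0.0596 and 0.0621 in degron libraries, against 0.104 and 0.0845 in untreated libraries (exact permutation p = 0.333), so Ndn was lower relative to Snrpn in both degron libraries. Snurf, a small protein from the same messenger RNA as Snrpn, had 0 counts in every library. All 216 exonic bases of Snurf lie within exons of Snrpn and of Gm38393 on the same strand, so its reads cannot be told apart from theirs. Ube3a shares 1803 exonic bases with Snhg14 on the other strand, and Snhg14 had 61.6 and 58.4 CPM in degron libraries, against 58.8 and 56.8 CPM in untreated libraries.

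The retrogenes Zrsr1 and Mcts2, which sit in introns of other genes, changed in the opposite direction to their hosts. Zrsr1 (chr11:22972005-22976496, plus strand), a splicing factor retrogene within Commd1, had 41.7 and 35.2 CPM in degron libraries, against 26.7 and 26.1 CPM in untreated libraries. Both degron libraries were higher and Zrsr1 rose by 0.54 ± 0.10 on the log2 scale (SE, edgeR adjusted p = 1.98e-06). Its host Commd1 (chr11:22896136-22982382, minus strand), a COMM domain protein, had 16.6 and 17.6 CPM in degron libraries, against 22.0 and 19.6 CPM in untreated libraries. Commd1 fell by 0.29 ± 0.12 on the log2 scale (SE, edgeR adjusted p = 0.0461), close to the threshold. The call of Commd1 was lost without degron replicate 1, degron replicate 2 or untreated replicate 1 (edgeR adjusted p of 0.230, 0.0883 and 0.254), with library sizes alone (0.0814), without a low-count filter (0.0878) and in DESeq2 (adjusted p = 0.358). The ratio of Zrsr1 to Commd1 counts was 2.51 and 2.01 in degron libraries, against 1.22 and 1.33 in untreated libraries (exact permutation p = 0.333). Their exons share 412 bases on opposite strands.

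Mcts2, a translation factor retrogene within H13, showed the reverse order. The RefSeq window of Mcts2, on the plus strand of chr2:152686898-152687197, is shown because it lies inside H13 and holds the hexamer, in capitals.
Mcts2: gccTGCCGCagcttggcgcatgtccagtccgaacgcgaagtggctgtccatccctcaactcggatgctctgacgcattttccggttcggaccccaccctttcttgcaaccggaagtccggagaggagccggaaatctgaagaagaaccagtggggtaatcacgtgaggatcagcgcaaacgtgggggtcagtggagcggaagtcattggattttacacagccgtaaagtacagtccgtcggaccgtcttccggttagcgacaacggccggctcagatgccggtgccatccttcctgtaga

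Mcts2 (chr2:152687035-152687946, plus strand) had 20.9 and 21.6 CPM in degron libraries, against 25.5 and 29.9 CPM in untreated libraries. The groups did not overlap and Mcts2 fell by 0.37 ± 0.11 on the log2 scale (SE, edgeR adjusted p = 0.00344). H13 (chr2:152669461-152708670, plus strand), the signal peptide peptidase, had 35.2 and 32.8 CPM in degron libraries, against 27.7 and 27.4 CPM in untreated libraries. H13 rose by 0.30 ± 0.10 on the log2 scale (SE, edgeR adjusted p = 0.00666), with both degron libraries above the untreated ones. The call of Mcts2 was lost without untreated replicate 2 (edgeR adjusted p = 0.0912) and that of H13 without degron replicate 1 (0.109), and both were lost in DESeq2 (adjusted p of 0.136 and 0.189). The ratio of Mcts2 to H13 counts was 0.594 and 0.658 in degron libraries, against 0.918 and 1.09 in untreated libraries (exact permutation p = 0.333).

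The parents of these retrogenes, which lie on chromosome X, were set beside them because near-identical copies can share reads. Mcts1, the parent of Mcts2, had 16.9 and 17.0 CPM in degron libraries, against 20.5 and 23.0 CPM in untreated libraries. Mcts1 fell by 0.36 ± 0.12 on the log2 scale (SE, edgeR adjusted p = 0.0120), nearly the same size as Mcts2. The ratio of Mcts2 to Mcts1 counts was 1.24 and 1.27 in degron libraries and 1.24 and 1.30 in untreated libraries, with overlap (exact permutation p = 0.667). The call of Mcts1 was lost without degron replicate 1, degron replicate 2 or untreated replicate 2 (edgeR adjusted p of 0.0669, 0.0561 and 0.103) and in DESeq2 (adjusted p = 0.212). Zrsr2, the parent of Zrsr1, had 77.3 and 73.7 CPM in degron libraries, against 69.5 and 69.3 CPM in untreated libraries, and was not called (edgeR adjusted p = 0.126). The ratio of Zrsr1 to Zrsr2 counts was 0.539 and 0.478 in degron libraries, against 0.384 and 0.377 in untreated libraries, higher in both degron libraries (exact permutation p = 0.333). Transcripts of Mcts2 and Mcts1 shared no run of identical bases longer than 29, and those of Zrsr1 and Zrsr2 none longer than 37.

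**Figure D2:**
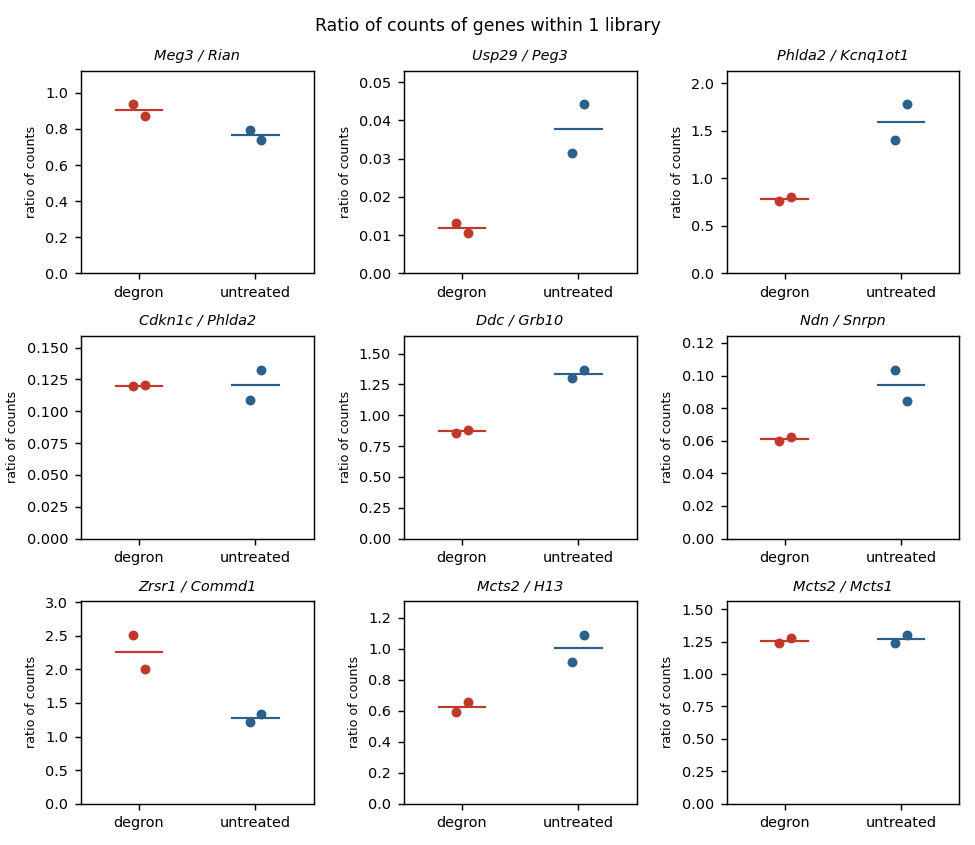
Ratio of the counts of a pair of genes within each library, for 9 pairs, with the degron libraries on the left and the untreated libraries on the right; points are libraries, lines are means of 2 libraries, and each axis starts at 0. Degron libraries lie below untreated ones for Usp29 to Peg3, Phlda2 to Kcnq1ot1, Ddc to Grb10, Ndn to Snrpn and Mcts2 to H13, above them for Meg3 to Rian and Zrsr1 to Commd1, and overlap for Cdkn1c to Phlda2 and Mcts2 to Mcts1. Usp29 passed the low-count filter through the untreated libraries alone.

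In the remaining intronic pairs, only Blcap was called. Nnat, neuronatin, lies in an intron of Blcap and had 4.69 and 4.06 CPM in degron libraries, against 4.17 and 4.12 CPM in untreated libraries. Its host Blcap (chr2:157556362-157571274, minus strand) had 33.7 and 35.3 CPM in degron libraries, against 30.3 and 24.9 CPM in untreated libraries. Nnat overlapped between groups, whereas Blcap rose by 0.31 ± 0.10 on the log2 scale (SE, edgeR adjusted p = 0.00613). The call of Blcap was lost without degron replicate 2 or untreated replicate 2 (edgeR adjusted p of 0.0583 and 0.155) and in DESeq2 (adjusted p = 0.179). Peg13, a non-coding RNA in an intron of Trappc9, had 1.64 and 2.51 CPM in degron libraries, against 1.04 and 1.30 CPM in untreated libraries. Trappc9, a subunit of the TRAPP trafficking complex, had 40.4 and 39.9 CPM in degron libraries, against 43.8 and 46.3 CPM in untreated libraries. Neither Peg13, at a log2 fold change of 0.81 ± 0.39, nor Trappc9, at -0.17 ± 0.08, was called (SE, edgeR adjusted p of 0.0850 and 0.0930). The ratio of Peg13 to Trappc9 counts was 0.0405 and 0.0629 in degron libraries, against 0.0238 and 0.0281 in untreated libraries (exact permutation p = 0.333).

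Gnas (chr2:174284320-174346744, plus strand), which encodes the stimulatory G protein alpha subunit and other products, had 34.8 and 32.4 CPM in degron libraries, against 26.8 and 26.7 CPM in untreated libraries. It rose by 0.33 ± 0.10 on the log2 scale (SE, edgeR adjusted p = 0.00357). The call of Gnas was lost without degron replicate 1 (edgeR adjusted p = 0.0780) and in DESeq2 (adjusted p = 0.150). Nespas, an antisense RNA that shares 988 exonic bases with Gnas on the other strand, had 3.49 and 2.87 CPM in degron libraries, against 1.80 and 2.06 CPM in untreated libraries. Both were higher in both degron libraries, but Nespas was not called (edgeR adjusted p = 0.0540), and gene counts cannot tell the alternative promoters of Gnas apart.

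The remaining members were not called or not tested. Slc38a4, an amino acid transporter, had 288 and 285 CPM in degron libraries, against 268 and 270 CPM in untreated libraries. It had the highest level per length of all members, at 67.3 CPM per kb in degron cells and 63.1 CPM per kb in untreated cells, and its small difference of 0.09 ± 0.05 on the log2 scale was not called (SE, edgeR adjusted p = 0.152). Sfmbt2, a Polycomb group protein, had 42.7 and 41.1 CPM in degron libraries, against 38.9 and 37.6 CPM in untreated libraries. Peg10, a retrotransposon-derived gene needed in the placenta, had 10.6 and 10.0 CPM in degron libraries, against 8.90 and 8.13 CPM in untreated libraries. Degron libraries were above the untreated ones for both of these without a call (edgeR adjusted p of 0.209 and 0.190). Sgce, epsilon-sarcoglycan, which starts beside Peg10, had 1.75 and 1.79 CPM in degron libraries, against 1.70 and 1.19 CPM in untreated libraries (log2 fold change 0.27 ± 0.38, SE). Mest, a hydrolase-fold protein also named Peg1, had 9.93 and 6.45 CPM in degron libraries, against 6.72 and 9.86 CPM in untreated libraries. Mest thus varied by about 1.5-fold between replicates of either group, and its log2 fold change was 0.01 ± 0.19 (SE, edgeR adjusted p = 0.977). Mest shares 912 exonic bases with Copg2 on the other strand, and Copg2 had 105 and 115 CPM in degron libraries, against 109 and 111 CPM in untreated libraries. Inpp5f, an inositol phosphatase with a paternally expressed isoform, had 17.2 and 20.9 CPM in degron libraries, against 18.4 and 14.6 CPM in untreated libraries, with overlap. Nap1l5, a nucleosome assembly protein retrogene, had 10 counts over the degron libraries and 9 over the untreated libraries, and Rasgrf1, an exchange factor for Ras, had 1 and 2, so neither was tested.

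**Figure D3:**
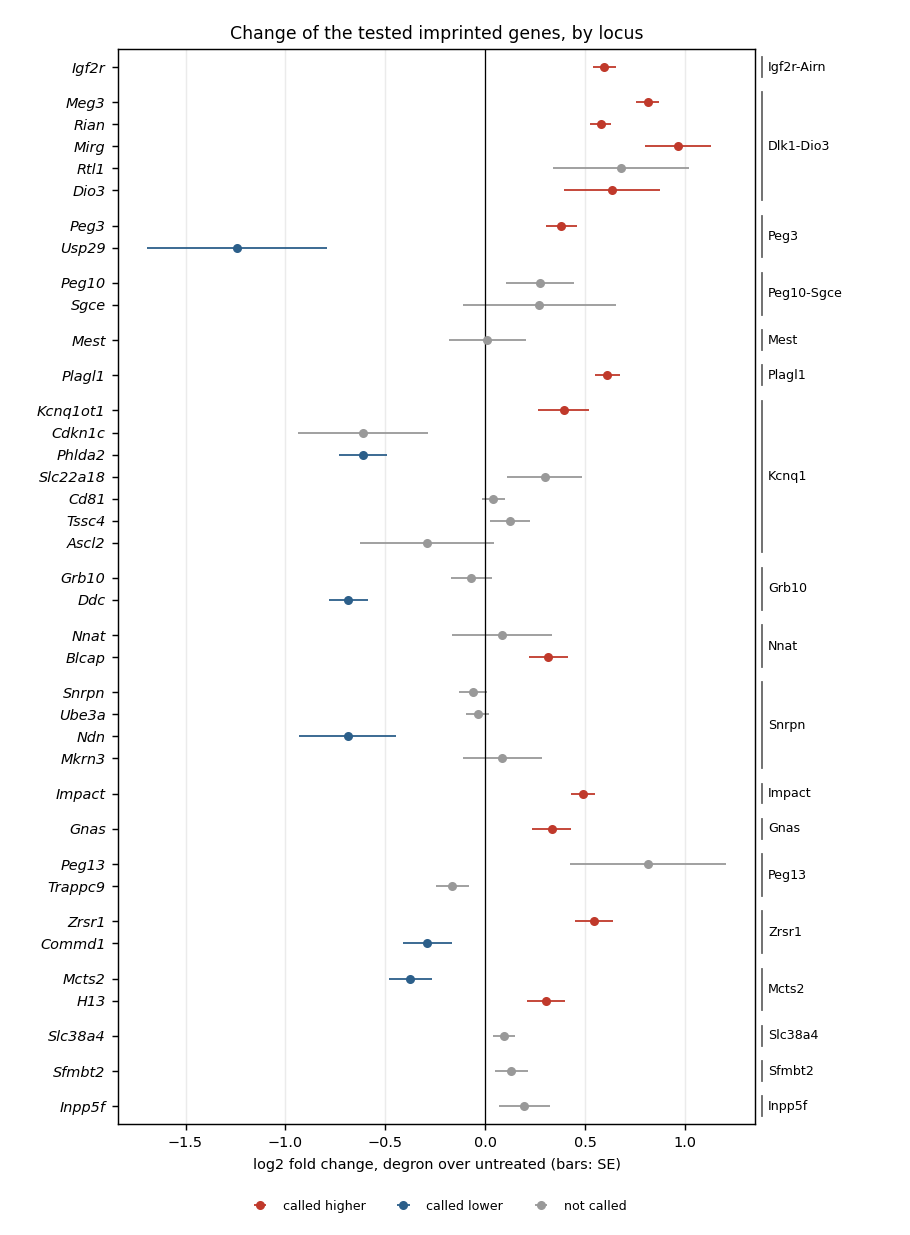
Log2 fold change of each tested imprinted gene, degron over untreated, from edgeR, grouped by locus; points are estimates and bars standard errors, with called rises in red, called falls in blue and genes not called in gray. The Dlk1-Dio3 genes all lie right of 0, from 0.58 for Rian to 0.96 for Mirg, while Usp29, which passed the low-count filter through the untreated libraries alone, is drawn at -1.24 with a long bar.

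Genes that set, keep, erase or read imprints were examined in the same libraries from a list of 22 genes. Of 21 tested, 3 were higher and 8 lower (52.4%, against the 43.8% of all genes), with a median log2 fold change of -0.08. Dnmt3l and Dnmt3b, of the 3 de novo methylation genes on the list, were among the lower ones, and Dnmt3a was not called. Dnmt3l, the cofactor of de novo methylation, had 24.2 and 23.5 CPM in degron libraries, against 42.7 and 47.8 CPM in untreated libraries, and fell by 0.92 ± 0.09 on the log2 scale (SE, edgeR adjusted p = 1.78e-13). Dnmt3b, a de novo methyltransferase, had 86.3 and 87.1 CPM in degron libraries, against 112 and 113 CPM in untreated libraries, and fell by 0.38 on the log2 scale. Dnmt3a, the other de novo methyltransferase, had 71.0 and 66.2 CPM in degron libraries, against 73.0 and 72.0 CPM in untreated libraries (log2 fold change -0.08, edgeR adjusted p = 0.359). Dppa3, also named Stella, which protects imprints in the zygote, had 15.7 and 15.6 CPM in degron libraries, against 24.9 and 24.8 CPM in untreated libraries, and fell by 0.66 on the log2 scale. The groups did not overlap for any of these 4 genes, as was so for 70.6% of all genes tested. Tet2, an enzyme that oxidizes methylcytosine, had 173 and 165 CPM in degron libraries, against 113 and 109 CPM in untreated libraries, and rose by 0.60 ± 0.06 on the log2 scale (SE, edgeR adjusted p = 7.91e-15).

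Smaller changes were seen in other genes of the list. Dnmt1, Uhrf1 and Hells were called lower, with log2 fold changes of -0.16, -0.14 and -0.18 (edgeR adjusted p of 0.00942, 0.0295 and 0.00516). Genes that read imprints or silence chromatin changed in both directions. Zfp57 had 285 and 288 CPM in degron libraries, against 245 and 262 CPM in untreated libraries (log2 fold change 0.18). Its partner Trim28 had 1378 and 1396 CPM in degron libraries, against 1542 and 1633 CPM in untreated libraries (log2 fold change -0.19). Setdb1, the H3K9 methyltransferase recruited by TRIM28, had 161 and 155 CPM in degron libraries, against 140 and 133 CPM in untreated libraries (log2 fold change 0.21). Ezh2, the methyltransferase of Polycomb repressive complexes, had 187 and 179 CPM in degron libraries, against 223 and 227 CPM in untreated libraries (log2 fold change -0.30). Zfp57, Trim28, Setdb1 and Ezh2 were all called by edgeR, and Ezh2 kept its call in every alternative. The call of Setdb1 was lost without degron replicate 1 and in DESeq2 (adjusted p of 0.0735 and 0.0655), that of Trim28 without degron replicate 1 or 2 (edgeR adjusted p of 0.148 and 0.100), and that of Zfp57 in DESeq2 (adjusted p = 0.0578) and without degron replicate 1, degron replicate 2 or untreated replicate 1 (edgeR adjusted p of 0.0527, 0.0731 and 0.0953). Fewer genes of the list were called without degron replicate 1 or 2, as among all genes tested, while Zfp57, Trim28, Setdb1 and Ezh2 kept their directions.

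A list of 44 other genes known as imprinted in mouse had 24 tested genes, of which 9 were higher and 6 lower (62.5%, against the 43.8% of all genes), with a median log2 fold change of 0.09. Their known imprinting need not hold in mESCs, where it was not measured. The higher genes with the smallest p were Zdbf2 (0.70), Jade1 (0.24), Phactr2 (0.58), which lies near Plagl1, and Casd1 (0.82), which lies near Sgce, with log2 fold changes in parentheses. Zdbf2, a paternally expressed zinc finger gene, had 111 and 109 CPM in degron libraries, against 65.4 and 70.6 CPM in untreated libraries. The lower genes with the smallest p were Dhcr7 (-0.79), the last enzyme of cholesterol synthesis, Gab1 (-0.28), Nap1l4 (-0.24) and Peg12 (-0.77), again as log2 fold changes. Peg12, which lies beside Mkrn3 in the Snrpn locus and is paternally expressed, had 5.35 and 5.49 CPM in degron libraries, against 9.94 and 8.46 CPM in untreated libraries. Peg12 was thus lower in both degron libraries, as were Ndn and the untested Magel2 in the same locus. Mkrn3, which lies between Magel2 and Peg12, overlapped between the groups, and Snrpn and Ube3a were not called. DESeq2 did not call Casd1 or Peg12 (adjusted p of 0.0524 and 0.0801). Without untreated replicate 2 the list had 5 higher genes in place of 9.

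**Figure D4:**
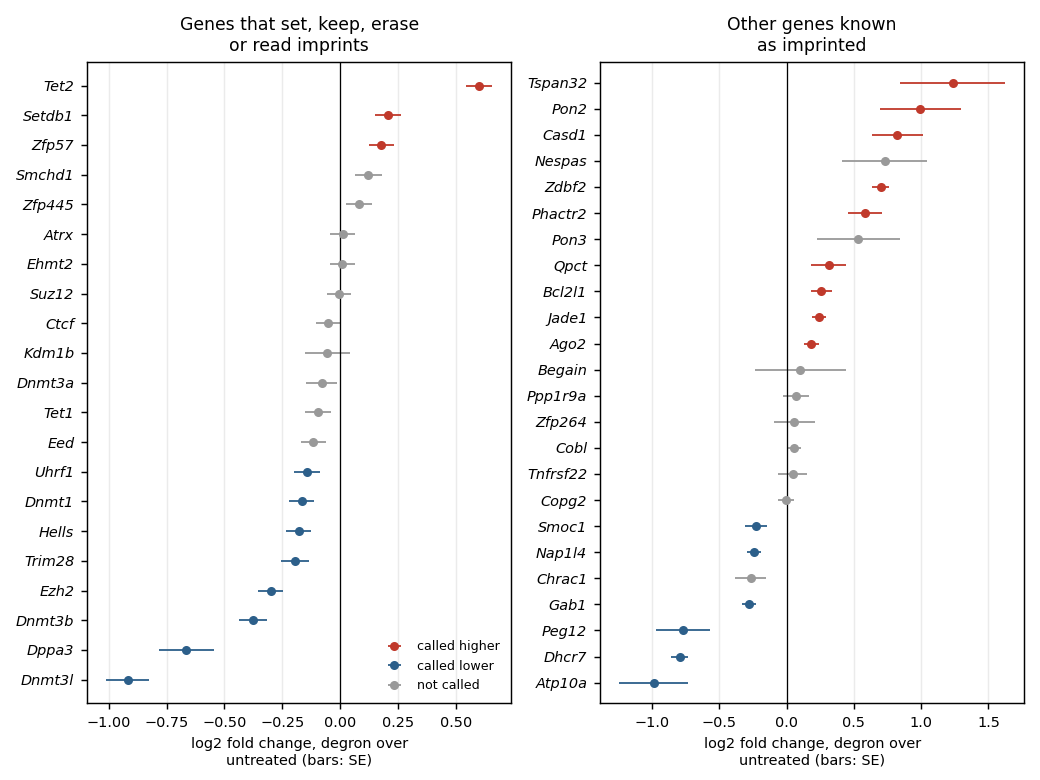
Log2 fold change, degron over untreated, of 21 tested genes that set, keep, erase or read imprints (left) and of 24 other tested imprinted genes (right), from edgeR, with bars as standard errors and colors for called rises (red), called falls (blue) and genes not called (gray). Tet2 is at the top left, at 0.60, and Dnmt3l at the bottom left, at -0.92.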

How the data were processed

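The deposited values were raw counts per gene in 4 libraries. Per the labels and the study's methods, the authors trimmed reads with cutadapt 2.6, mapped them to mm10 with STAR 2.7.6a, kept primary alignments without PCR duplicates and counted with featureCounts 1.6.3 on GENCODE vM25. Poly(A) selection is stated in the labels while the methods name another kit, and the strand setting is not given in the sources used here. Of 55401 gene IDs, 55141 matched GENCODE vM21 (GRCm38), which gave symbols, positions and exonic lengths.

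The members, lists, tests and alternatives were chosen with earlier results of these data known. The quasi-likelihood test of edgeR 4.0.16 (R 4.3.3) was fitted to the counts after filterByExpr and TMM scaling, with group as the single term. Adjusted p-values are Benjamini-Hochberg values over 13916 genes, called at 0.05, and the SE is the size of the log2 fold change divided by the square root of F. The common biological coefficient of variation was 3.31%. Pearson's r across genes was 0.994 within each group and 0.976 to 0.977 between groups. Single values were compared by an exact permutation test. Every member was described, and of each further list the called genes were named, at most 8 in order of p, with Dnmt1, Uhrf1 and Hells added to the regulators. Alternatives were DESeq2 1.42.0 (the study's tool), limma-voom (limma 3.58.1), other scalings and low-count filters, the replicate block and each library left out. A group reduced to 1 library was assumed to vary like the other. The procedure was tested on simulated data.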

Additional observations from a re-analysis of the deposited data

How the results depend on the processing

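Among 11 alternatives, 10 of the 19 called imprinted genes kept their call in each one that gave an adjusted p, 9 lost it in at least 1, 3 genes not called were called in at least 1 (Slc22a18, Slc38a4 and Inpp5f), and 0 called genes reversed. DESeq2 called 1440 genes higher and 1484 lower over all genes, and 8 and 2 of the imprinted genes. It called 1 imprint regulator higher and 8 lower, the same number lower as edgeR, and 4 higher and 3 lower of the other imprinted genes. With 1 library left out, edgeR called 9 to 14 imprinted genes higher and 3 to 4 lower, 1 to 3 regulators higher and 4 to 9 lower, and 5 to 8 other imprinted genes higher. Replicate numbers did not pair the libraries (correlation of their deviations 0.0439 over 13916 genes). With the replicate block, edgeR called 3369 genes higher and 3276 lower, 14 imprinted genes higher and 6 lower, 4 regulators higher and 10 lower, and 10 other imprinted genes higher and 7 lower, and Slc38a4 was called higher (adjusted p = 0.0352). Usp29 did not pass the stricter filter of 1 CPM in both groups, and DESeq2 gave it no adjusted p, so neither gave it a call. Depth limits the genes at a few counts, among them Usp29, Rtl1, Cdkn1c and Peg13.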
